A study of Mus musculus with 6 samples.

Results

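The naive T cell and memory factor genes are a set of 10 genes, of which 9 were measured by 19 probe sets on the arrays: Lef1, Bach2, Satb1, Id2, Id3, Ets1, Ets2, Il7r and Myb. They were taken by symbol, as every probe set that the platform annotation gives to 1 of the 10 names and to no other gene, among 22626 probe sets for 12393 genes in all. No probe set carried the name Tcf7, the remaining member, and it was not analysed here. Regulatory T cells (Tregs), the Foxp3-expressing CD4 T cells that restrain immune responses, were compared between wild type C57BL6 mice (WT, 3 arrays) and fl-HDAC11/Foxp3cre mice (HDAC11-/-, 3 arrays). In the second strain, floxed Hdac11, the gene of a histone and protein deacetylase, is cut out by a Cre recombinase expressed from the Foxp3 locus together with a yellow fluorescent protein. The labels give no age, sex, treatment or pooling. The methods, for the study's mice in general, name male mice and young adult age, with the Foxp3-Cre and floxed strains backcrossed to C57BL/6. The WT group is labelled without Cre, so the loss of HDAC11 and the Foxp3-Cre allele itself cannot be told apart. Total RNA of CD4+CD25+ cells, separated by magnet, was measured on Affymetrix Mouse430A arrays, on which each transcript is read by 1 or more probe sets, here as log2 values. Differences are given on that scale as HDAC11-/- minus WT.

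Naive and memory T cells are kept in a resting, long-lived state by a set of transcription factors and by the cytokine interleukin 7. LEF1 and TCF-1 (encoded by Tcf7) are DNA-bending factors that work with beta-catenin and Groucho/TLE corepressors. BACH2 is a repressor that competes with AP-1 for its sites and restrains effector genes, SATB1 organises chromatin in developing T cells, and MYB supports survival of progenitor-like T cells. ID2 and ID3 have no DNA-binding region and hold E proteins away from DNA, with ID2 typical of effector and ID3 of naive and memory cells. ETS1 and ETS2 are founding members of the ETS family, and the receptor chain encoded by Il7r, CD127, is known to be low on most Tregs.

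The arrays gave a usable level of all 9 genes and few large differences. Member values ran from 6.65 to 12.86 on the log2 scale, above the highest bacterial control of the same array, which lay between 5.06 and 5.48. A probe set was called when its adjusted p was under 0.05 and its difference at least 1.5-fold (0.58 on the log2 scale), the thresholds of the methods. Of 19 member probe sets, 1 was called higher in HDAC11-/- Tregs (Ets2) and 2 lower (1 of Id2, 1 of Il7r). Over all probe sets 3.87% were called higher and 5.03% lower, and 8.9% in either direction, against 15.8% (3 of 19) of the member probe sets. On the scale of the reference genes described below, 494 probe sets were called higher and 1934 lower, where the deposited values gave 876 and 1138. On that scale the members had 1 probe set called higher and 4 lower, and 1 gene higher and 2 lower (Bach2 and Il7r). By the adjusted p alone 5 of the 19 rose and 6 fell, together 57.9%, while 23.2% of all probe sets rose, 22.4% fell and 45.6% did either. The 2 groups of arrays did not overlap for 14 of the 19, 7 in each direction. Over all probe sets this held for 28.2% upwards, 28.5% downwards and 56.7% together. With a gene read by its brightest probe set over the 6 arrays, 1 of 9 genes was called higher (3.46% of all genes) and none lower (3.72%), with 7.18% of all genes called in either direction. By the adjusted p alone 2 genes rose and 3 fell, against 22.9% and 23.2% of all genes. At an unadjusted p under 0.05 from limma 3 of the 9 were higher and 4 lower. The share of all genes at that threshold was not counted, so these counts are not read as a result about the members. SAM, the test of the methods, also called 1 gene higher and 0 lower. By any probe set the counts were 1 higher and 2 lower, against 5.31% and 6.66% of all genes. The median log2 fold change was 0.12 over the 9 genes and -0.04 over all genes.

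**Figure D1:**
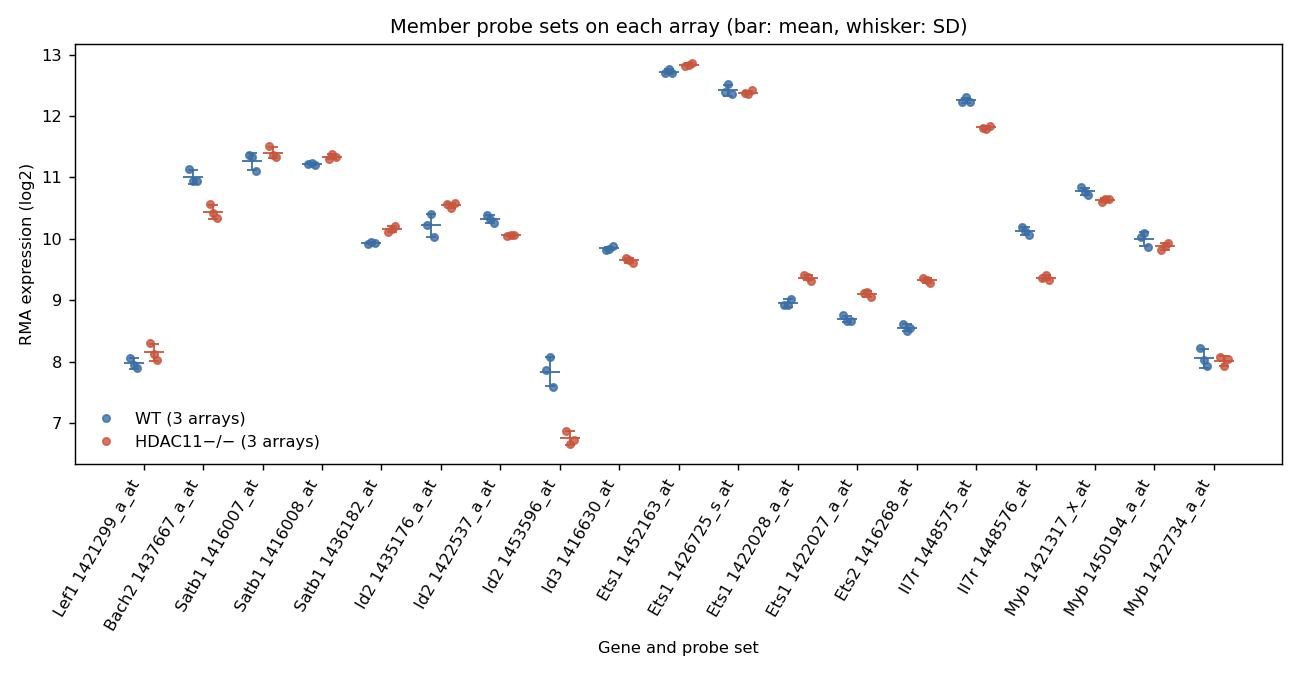
RMA expression (log2) on each array for the 19 member probe sets, ordered by gene and within a gene from the brightest down, with the mean as a bar and the SD as a whisker for 3 WT and 3 HDAC11-/- arrays. The clearest separations are Id2 1453596_at, at a mean of 7.84 in WT and 6.75 in HDAC11-/-, Ets2, at 8.55 and 9.33, and Il7r 1448576_at, at 10.13 and 9.37.

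On the series as a whole, arrays of different genotype correlated at 0.985 to 0.988 and arrays of the same genotype at 0.997 to 0.999, and array medians lay between 6.74 and 6.77. Hdac11 itself differed by -0.12 in its brighter probe set (SE 0.07, adjusted p = 0.222 from limma), which checks neither the deletion nor the labels, since its place relative to the deleted part was not known. T cell markers were at similar levels in both genotypes: of 6 measured, none was called and only Cd4 passed the adjusted p, at -0.32. None of 10 Treg markers was called. By the adjusted p Ctla4 rose, at 0.50, and Gpr83, Ikzf2 and Izumo1r fell, at -0.33, -0.35 and -0.20. Foxp3 itself, at 3.68 in WT and 3.73 in HDAC11-/-, was no brighter than the bacterial controls in either. Scaling the arrays on 12 reference genes lowered every log2 fold change by 0.14, taking the median of all probe sets from -0.03 to -0.18, and 5 of those 12 genes were themselves higher at an adjusted p under 0.05 on the deposited scale. Markers of other cells moved with genotype, and their part in the results below was not tested. Summed on the linear scale, 7 B cell markers came to 1168 to 1229 in WT and 746 to 770 in HDAC11-/-, with 4 called lower (Ms4a1, Cd22, Cd79a and Blnk) and Pax5 and Ebf1 within the bacterial range in both. For 7 dendritic cell markers the sums were 3192 to 3275 and 1533 to 1589, with H2-Aa and Batf3 called lower and Xcr1 within that range. Most of that fall was H2-Aa, at 2317 to 2387 and 756 to 797. The other 6 summed to 875 to 924 and 777 to 792, with Itgax at -0.39, Zbtb46 at -0.26, Flt3 at 0.11 and Irf8 at -0.04. By the adjusted p 4 of the 7 fell and 0 rose. For 7 CD8 T and NK cell markers the sums were 1938 to 2016 and 1597 to 1722, with Fcer1g and Ncr1 called lower. By the adjusted p 4 of the 7 fell, among them Klrd1 at -0.34 and Eomes at -0.30, and 1 rose, Cd8b1 at 0.42. Cd8a and Nkg7 were at -0.04 and 0.002. For 9 monocyte and macrophage markers the sums were 295 to 311 and 344 to 397, with C1qa, C1qb and C1qc called higher. Of the 9, 4 lay within the bacterial range in both, among them Cd14 and C1qb. Csf1r, at -0.02 in its brightest probe set, was called higher in its other probe sets, at 1.13 and 0.73. By the adjusted p 6 of the 9 rose and 0 fell. In such bulk samples, fewer cells of a type and less RNA per cell cannot be told apart.

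The 3 members with a called probe set are shown with the bases just before their first annotated base, to place the compared transcripts in the genome. The sequences are from RefSeq (GRCm38.p6), 5′ to 3′ on the gene's strand. Capitals mark an E box of the form CAGNTG, on either strand, and other forms of the E box were not searched. E boxes are the site type of the E proteins that ID2 and ID3 hold back. Ets2 is shown at chr16:95702157-95702406 (plus strand), Id2 at chr12:25096093-25096342 (minus strand) and Il7r at chr15:9529942-9530126 (minus strand).
Ets2: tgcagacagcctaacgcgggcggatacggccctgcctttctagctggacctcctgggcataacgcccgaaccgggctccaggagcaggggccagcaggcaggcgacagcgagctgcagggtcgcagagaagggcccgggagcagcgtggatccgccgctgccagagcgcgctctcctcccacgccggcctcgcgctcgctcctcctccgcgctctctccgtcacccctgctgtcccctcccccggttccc
Id2: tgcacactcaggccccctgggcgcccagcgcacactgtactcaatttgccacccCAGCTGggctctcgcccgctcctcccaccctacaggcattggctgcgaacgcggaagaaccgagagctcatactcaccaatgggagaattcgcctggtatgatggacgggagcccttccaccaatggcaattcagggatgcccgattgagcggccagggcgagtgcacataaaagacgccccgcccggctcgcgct
Il7r: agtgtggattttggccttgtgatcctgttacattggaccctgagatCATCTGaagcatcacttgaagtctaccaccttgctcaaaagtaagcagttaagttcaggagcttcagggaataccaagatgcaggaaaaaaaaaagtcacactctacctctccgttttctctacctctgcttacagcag
An E box of this form lay in the Id2 window, where it reads CAGCTG on both strands, and in the Il7r window, where it lies on the opposite strand. The Ets2 window held none, nor did the windows of Lef1, Satb1, Id3 and Myb, which are not shown. Of all 32851 RefSeq windows in the table, 44.8% held one over the same 250 bases and 36.0% over the same 185 bases. None of the 3 windows held the ETS letters GGAAGT, the AP-1 and BACH letters TGANTCA or the TCF and LEF letters CTTTGNT on either strand. Over 250 bases 19.7%, 6.75% and 16.0% of all windows held them, and over 185 bases 13.4%, 5.06% and 12.4%. With 1 match in each of those 2 windows, no matches overlapped. The arrays measured transcripts and not these regions, and a match is a description of the letters alone.

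Of the ETS genes, Ets2 was higher in HDAC11-/- Tregs and Ets1 differed little in its brightest probe sets. ETS2 is a factor activated by MAP kinase signals, and ETS1 is abundant in resting lymphocytes. Ets2, with 1 probe set, was at 8.61, 8.50 and 8.55 in WT and at 9.37, 9.32 and 9.29 in HDAC11-/- Tregs. All 3 HDAC11-/- arrays lay above all WT arrays, by far more than the spread within either group. The difference was 1.71-fold, a log2 difference of 0.77 (SE 0.05, adjusted p = 8.89e-05 from limma), and it stayed between 0.74 and 0.80 with each array left out in turn. On the reference gene scale it was at 0.63, closer to the fold threshold but past it.

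Ets1 had 4 probe sets, which fell into a bright pair and a dimmer pair. The brightest, 1452163_at, was at 12.70, 12.77 and 12.70 in WT and 12.82, 12.84 and 12.86 in HDAC11-/-. Its groups did not overlap, but the log2 difference of 0.12 (SE 0.05) had an adjusted p of 0.0738 from limma. Probe set 1426725_s_at, also near the top of the range at a mean of 12.42 in WT and 12.38 in HDAC11-/-, overlapped between the genotypes, with a log2 difference of -0.03 (SE 0.06). The dimmer pair differed more. Probe set 1422028_a_at was at 8.93, 8.92 and 9.02 in WT and 9.41, 9.38 and 9.32 in HDAC11-/-, a log2 difference of 0.41 (SE 0.05, adjusted p = 0.00109 from limma). Probe set 1422027_a_at had a log2 difference of 0.41 too (SE 0.05, adjusted p = 0.00105). Both rose by the adjusted p and stayed short of the fold threshold. On the reference gene scale the brightest probe set turned to -0.03, 1426725_s_at was at -0.18 (adjusted p = 0.0264) and the dimmer pair at 0.27 and 0.26.

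**Figure D2:**
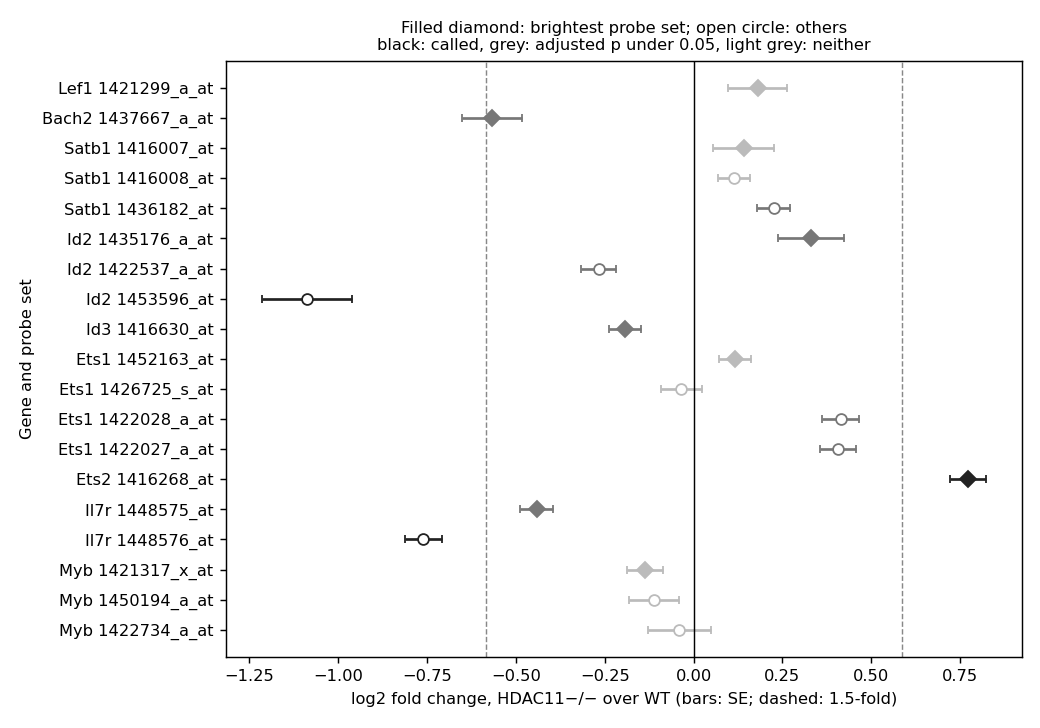
Log2 fold change of HDAC11-/- over WT for the 19 member probe sets, from 3 arrays per genotype, with the SE as a bar, with a filled diamond for the brightest of a gene, an open circle for the others and dashed lines at 1.5-fold. Ets2 at 0.77 lies beyond the line on the right, Id2 1453596_at at -1.09 and Il7r 1448576_at at -0.76 beyond it on the left, and Bach2 at -0.57 just short of it.

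Il7r was lower in HDAC11-/- Tregs by both of its probe sets, 1 of which passed the fold threshold. Its product, CD127, pairs with the common gamma chain to signal survival through JAK1, JAK3 and STAT5. The brighter probe set, 1448575_at, was at 12.23, 12.31 and 12.23 in WT and 11.81, 11.79 and 11.85 in HDAC11-/-. The dimmer, 1448576_at, was at 10.19, 10.13 and 10.07 in WT and 9.35, 9.42 and 9.34 in HDAC11-/-. In both, all HDAC11-/- arrays lay below all WT arrays. The log2 differences were -0.44 (SE 0.05, adjusted p = 0.000527 from limma), or 1.36-fold lower, and -0.76 (SE 0.05, adjusted p = 0.000104), or 1.69-fold lower. Both probe sets fell by the adjusted p, and the dimmer was called with each array left out in turn, at -0.79 to -0.73. The brighter passed the fold threshold when arrays were scaled on the reference genes, at -0.59. The gap between them, brighter minus dimmer, was 2.04, 2.18 and 2.16 in WT and 2.45, 2.38 and 2.51 in HDAC11-/-. It was 0.32 wider in HDAC11-/- on average, a description without a test, since the pair was taken because 1 of the 2 was called.

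Id2 gave no single direction. Its 3 probe sets all passed the adjusted p, 1 of them higher and 2 lower. The brightest over the 6 arrays, 1435176_a_at, was at 10.22, 10.40 and 10.03 in WT and 10.56, 10.51 and 10.58 in HDAC11-/-, a log2 difference of 0.33 (SE 0.09, adjusted p = 0.0267 from limma). Probe set 1422537_a_at, the brightest of Id2 on the WT arrays alone, was at 10.39, 10.32 and 10.26 in WT and 10.05, 10.06 and 10.06 in HDAC11-/-, a log2 difference of -0.27 (SE 0.05, adjusted p = 0.00487). Probe set 1453596_at was at 7.86, 8.07 and 7.59 in WT and 6.87, 6.65 and 6.72 in HDAC11-/-. That is a log2 difference of -1.09 (SE 0.13, adjusted p = 0.000784), or 2.13-fold lower, the largest difference of any member probe set. No pair of groups overlapped in any of the 3. The suffix _a_at marks a probe set whose probes match alternative transcripts of 1 gene. The 2 brighter probe sets carry it and 1453596_at does not. Which transcripts each one reads was not known here. The gap between 1435176_a_at and 1453596_at was 2.36, 2.33 and 2.45 in WT and 3.69, 3.86 and 3.85 in HDAC11-/-, 1.42 wider in HDAC11-/-. This too is a description, since the calls of these arrays chose the pair. The rise of 1435176_a_at no longer passed the adjusted p without WT replicate 1 or without any 1 of the HDAC11-/- replicates, at up to 0.0784, or on the reference gene scale, at 0.114, where 1422537_a_at was at -0.41. Probe set 1453596_at stayed called with each array left out, at -1.21 to -0.97.

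Id3, with 1 probe set, was slightly lower. It was at 9.82, 9.84 and 9.88 in WT and 9.68, 9.66 and 9.61 in HDAC11-/-, without overlap. The log2 fold change was -0.19 (SE 0.05, adjusted p = 0.0134 from limma), under the fold threshold. On the reference gene scale it was at -0.34. On the deposited scale the adjusted p reached 0.0528 without HDAC11-/- replicate 3 and 0.0796 by SAM.

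**Figure D3:**
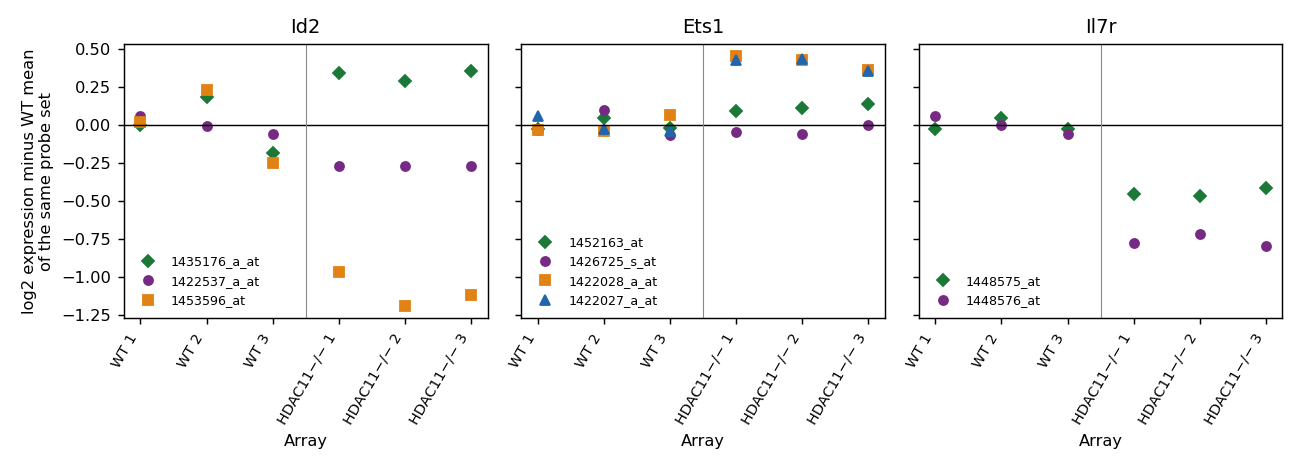
Expression on each array (log2) minus the WT mean of the same probe set, for the probe sets of Id2, Ets1 and Il7r, 1 marker per probe set. In Id2 the HDAC11-/- arrays lie above 0 for 1435176_a_at and below it for the other two, in Ets1 only the dimmer pair is about 0.41 above 0, and in Il7r both probe sets lie below 0, by 0.44 and 0.76.

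Bach2 was lower in HDAC11-/- Tregs by nearly the fold threshold. Its probe set was at 11.14, 10.95 and 10.94 in WT and 10.57, 10.42 and 10.34 in HDAC11-/-, so that the groups lay well apart. The log2 difference of -0.57 (SE 0.08, adjusted p = 0.00205 from limma), or 1.48-fold lower, passed the adjusted p and missed the fold threshold by 0.018. It passed both without WT replicate 2, without WT replicate 3 or without HDAC11-/- replicate 1, at -0.60, -0.60 and -0.63, and on the reference gene scale at -0.71. BACH2 is also made in B cells, and the B cell markers were lower in HDAC11-/- as given above. Whether B cells had a part in the Bach2 difference was not tested. Bach2 is the member closest to the threshold, followed outside it by Il7r 1448575_at at -0.44 and inside it by Il7r 1448576_at at -0.76.

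Of the 7 probe sets of Lef1, Satb1 and Myb, 1 passed the adjusted p and none the fold threshold on the deposited scale. Lef1, with 1 probe set, was at 8.07, 7.95 and 7.89 in WT and 8.30, 8.12 and 8.03 in HDAC11-/-, overlapping groups with a log2 difference of 0.18 (SE 0.08, adjusted p = 0.121 from limma). On the reference gene scale Lef1 was at 0.035. Of the 3 Satb1 probe sets, the brightest had a log2 difference of 0.14 (SE 0.09, adjusted p = 0.222) with overlapping groups, and the second one of 0.11 (SE 0.04, adjusted p = 0.0781) without overlap. The third, 1436182_at, was at 9.92, 9.94 and 9.93 in WT and 10.11, 10.15 and 10.21 in HDAC11-/-. It rose by the adjusted p, at a log2 difference of 0.22 (SE 0.05, adjusted p = 0.00789). By SAM its adjusted p was 0.0517. All 3 Satb1 values were above 0 on the deposited scale. On the reference gene scale the brighter 2 turned to -0.0046 and -0.031, and 1436182_at was at 0.08 with an adjusted p of 0.173. The 3 Myb probe sets had log2 differences of -0.14, -0.11 and -0.04, with adjusted p from 0.065 to 0.737 from limma. On the reference gene scale they were at -0.28, -0.26 and -0.18, and the first 2 passed the adjusted p, at 0.00502 and 0.0168. Groups overlapped in the dimmer 2 of them and lay apart in the brightest, at 10.71 to 10.84 in WT and 10.60 to 10.66 in HDAC11-/-.

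Of the genes these factors work with or are known to mark, 85 of 93 on 8 lists were measured. By the brightest probe set 6 were called higher and 3 lower, together 10.6%, against 3.46%, 3.72% and 7.18% of all genes, with a median log2 difference of 0.03. Of 14 TCF/LEF partners, only Tle2, a Groucho corepressor, was called, at -0.67 (SE 0.08, adjusted p = 0.000996 from limma). On the HDAC11-/- arrays Tle2 was at 5.35, 5.31 and 5.52, little above their highest bacterial controls at 5.28, 5.06 and 5.09. Ctnnb1, the gene of beta-catenin, was at -0.24 in its brightest probe set at 0.11 in another and at -1.01 in 1430533_a_at, which was called. Nlk, a kinase that acts on TCF and LEF factors, was likewise at -0.13 in the brightest and called at -0.71 in the other. The list median was -0.01. Among 5 E protein and other Id genes none was called by the brightest probe set. Tcf3 and Tcf12, the E proteins of T cells, were at -0.12 and 0.12. Tcf4, the E protein of B cells and plasmacytoid dendritic cells, was at -0.37 (adjusted p = 0.00527) and had a dimmer probe set called at -0.76. Among 6 BACH and small MAF partners none was called. Maff came closest at 0.56, while Bach1 was at -0.06 and the median was 0.07.

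Of 17 other ETS family genes, only Spib, a factor of B cells and plasmacytoid dendritic cells, was called, at -0.89 (SE 0.09, adjusted p = 0.000403 from limma). On the HDAC11-/- arrays Spib was at 5.44, 5.25 and 5.45, little above their highest bacterial controls at 5.28, 5.06 and 5.09. Like Spib, the B cell markers were lower. By the adjusted p 4 of the 7 dendritic cell markers were lower and 0 higher. A link of either to Spib was not tested. The ETS genes Fli1, Gabpa and Elk4 passed the adjusted p at 0.46, 0.39 and -0.35 without reaching the fold threshold, and the list median was 0.003. Of 11 genes of the IL-7 receptor axis, only Il7, the cytokine itself, was called lower, but no array showed it above the bacterial controls and no fold is given. Stat5a was at 0.30 and Bcl2, a survival gene downstream of the receptor, at -0.38. Jak1 was at -0.19 in its brightest probe set and called lower in a dimmer one, at -1.24 with an SE of 0.39, so that by any probe set 2 genes of the axis were called lower. The list median was 0.02. Of 4 relatives and cofactors of Myb and Satb1, Mybl2, a MYB family gene of dividing cells, was called higher at 0.88 (SE 0.09, adjusted p = 0.000398 from limma), while its other probe set was at 0.04. Cux1, a homeodomain factor related to Satb1, was at 0.14 in its brightest probe set and called lower in 1425611_a_at, at -0.61. The list median was 0.16.

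A further pair of lists describes the states that the members are known for. Of 13 naive and central memory genes, Klf2, a factor for lymph node homing and egress, was called higher at 1.09. Ccr7, which guides naive cells to lymph nodes, was at 0.14, S1pr1 at -0.04, and Il6ra, a receptor chain typical of naive CD4 cells, at -0.56. Foxp1, which keeps naive T cells quiescent, was at -0.48 in its brightest probe set and called at -2.64 in another, 1438802_at, while the other 5 lay between -0.52 and 0.20. By the adjusted p alone 3 of the list rose and 4 fell, and the list median was 0.08. Of 15 effector genes, 4 were called higher (Gzmb, Il10, Bhlhe40 and Klrg1, at 2.06, 1.41, 1.19 and 1.11) and none lower. That is 26.7% called higher, against 3.46% of all genes. The other 11 lay between Icos at -0.33 and Irf4 at 0.42, and the list median was 0.17. By the adjusted p alone 7 of the 15 rose and 3 fell (Itgae, Cxcr3 and Tbx21, at -0.22, -0.17 and -0.18). Prdm1, the gene of Blimp-1 and a target that BACH2 represses in lymphocytes, was at 0.42 (adjusted p = 0.00145 from limma), short of the fold threshold. These lists were chosen with earlier results of these arrays known, so their counts are descriptions.

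**Figure D4:**
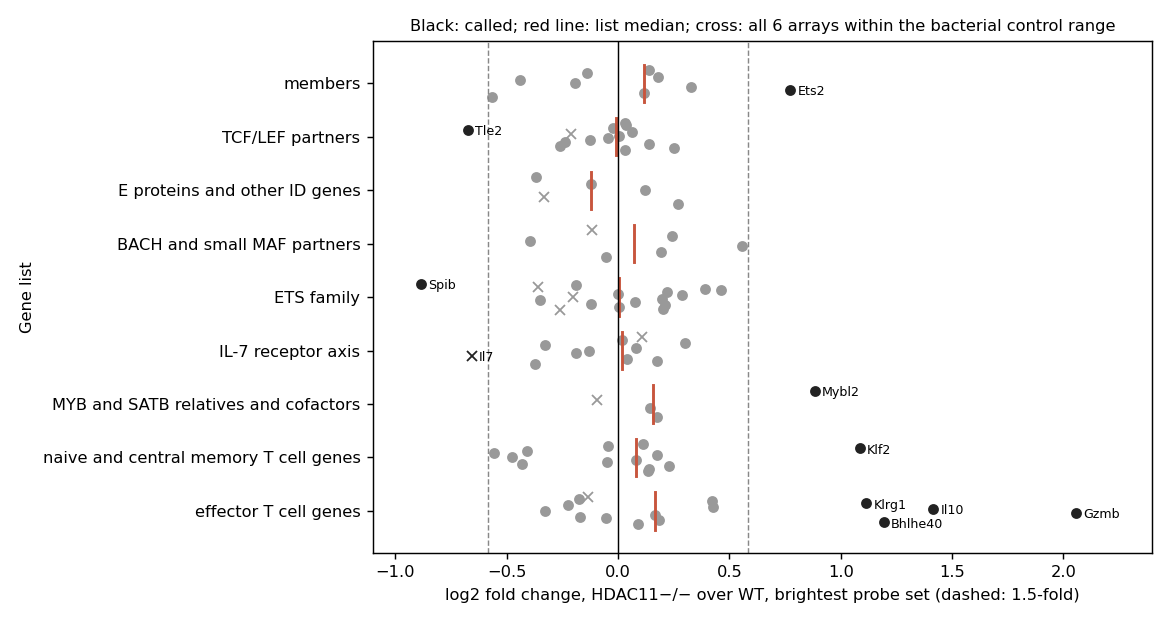
Log2 fold change (HDAC11-/- over WT) of each measured gene by its brightest probe set, for the members and 8 lists of genes they work with or are known to mark, with list medians as red lines and called genes named. Most genes lie within 0.58 of 0, called ones reach from Spib at -0.89 to Gzmb at 2.06, and crosses, such as Il7, lay within the bacterial control range on all 6 arrays.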

How the data were processed

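The authors amplified and biotin-labelled total RNA, hybridised Affymetrix Mouse430A arrays and applied robust multiarray average (RMA) normalization, which corrects background, equalizes distributions between arrays and summarizes each probe set. The deposited files hold the resulting log2 values. Probe definitions and genome build are not given in the sources used here, and raw probe values were not used here. No value column was left unassigned.

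Of 22671 probe sets, 45 controls were left out. For the other 22626 a linear model with 1 term, genotype, was fitted with limma 3.58.1 (R 4.3.3; lmFit, then eBayes) and p-values were adjusted over all of them after Benjamini and Hochberg. Through the platform's annotation 20380 carried 1 gene symbol, 691 several and 1555 none. Listed genes were matched by their current or older symbol. Calls required an adjusted p under 0.05 plus a 1.5-fold difference. No dim probe sets were removed. The brightest probe set by mean stood for a gene, and a probe set whose arrays all lay at or below the highest of 27 bacterial controls got no fold. Named were all members, Hdac11, Foxp3 and, within a list, up to 4 called genes a direction or the one with the smallest adjusted p. Other genes were named after their values were seen. The members and lists were chosen with earlier results of these data known. SAM was written out from its definition over all 20 labelings. The procedure was tested on simulated data. Alternatives were other variance models, a replicate block, rescaling on reference genes or bacterial controls, filters, thresholds, gene summaries and leaving out each array. The number of arrays limits precision, with a median SD of 0.09 in WT and 0.07 in HDAC11-/-. The design text calls the HDAC11-/- samples independent, but no label ties an array to a mouse, so p-values measure only the spread between them. Same-numbered arrays of the 2 genotypes are not stated to be paired. Figures used matplotlib 3.10.9.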

Additional observations from a re-analysis of the deposited data

How the results depend on the processing

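Of the 19 member probe sets, none of the 3 called ones lost its call under any alternative fit, scale or left-out array. Both counts depend on the fold threshold. Without it 5 member probe sets were called higher and 6 lower, 2 and 3 of the genes, and 22 and 20 of the companion genes. At 2-fold the member probe sets gave 0 higher and 1 lower, the member genes 0 higher, and the companion genes 0 lower. Scaled on the reference genes, 4 member probe sets, 2 member genes (Bach2 and Il7r) and 5 companion genes were called lower, and Satb1 1416007_at, Satb1 1416008_at and Ets1 1452163_at turned to -0.0046, -0.031 and -0.028. With the probe sets dimmer than the median left out, 0 companion genes were called lower, since Tle2, Spib and Il7 were themselves left out and not tested. With the median over a gene's probe sets 1 member gene was called lower (Il7r, at -0.60) and Id2 turned to -0.14. With only probe sets without a suffix 1 was called lower (Id2, at -1.09), and Lef1, Bach2 and Myb had none left. By any probe set, an alternative chosen after seeing the data, 2 member genes and 9 companion genes were called lower. Leaving out each array gave 0 to 1 member genes called lower, the one being Bach2. It gave -0.068 to 0.014 for Ets1 1426725_s_at and -0.11 to 0.044 for Myb 1422734_a_at. The causes of the other changes were not tested. Same-numbered arrays deviated together with correlations of 0.23, -0.02 and 0.16, which does not pair them, and not every array correlated best with its own number. With the replicate block Lef1 passed the adjusted p (0.0423, at 0.18) but not the fold threshold. Under that block 1 member probe set was called higher and 2 lower, and over all probe sets 877 and 1154 against 876 and 1138. With an intensity trend and robust prior in limma, Satb1 1416008_at, Ets1 1452163_at and Myb 1421317_x_at passed the adjusted p, at 0.00793, 0.00166 and 0.00792. They also passed it with the dimmer probe sets left out, at 0.0224, 0.0211 and 0.0218. None of them reached the fold threshold.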
